A study of Homo sapiens with 14 samples.

Results

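Transcript levels of 9 genes of the NRF2 antioxidant response were followed in 2 human pancreatic cancer cell lines treated with angiogenin or epidermal growth factor. The genes were taken by symbol and not by a measured value, but with earlier results of these data known. They are 9 of the 23040 genes listed in each library. The 9 are NFE2L2, which encodes NRF2 itself, and HMOX1, NQO1, GCLC, GCLM, TXNRD1, SRXN1, AKR1C1 and AKR1B10, which are textbook NRF2 target genes. Serum-starved Panc-1 and AsPC-1 cells received angiogenin (ANG, the secreted ribonuclease hRNase5) at 1 µg/ml or epidermal growth factor (EGF), the ligand of the receptor EGFR, at 50 ng/ml. Treatment lasted 1, 5 or 24 h. A library of untreated cells of each line, labelled mock, served as reference, and the labels do not give its sampling time. The 14 libraries therefore formed 7 conditions in each line, with 1 library per condition. The series title names ANG as an EGFR ligand, which frames the question of whether the ligands moved the same genes. Both lines are established cultures of pancreatic carcinoma cells, so each line is a single genetic background. The ligands were given at different doses, and a difference between ligands cannot be told apart from one between doses. No condition was repeated within a line. Every p-value below measures only the spread between lines, ligands, time courses or conditions of these libraries. The p-values of Panc-1 against AsPC-1 measure how the gap varied over the 7 conditions, and not variation between cultures of a line.

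NRF2 is a transcription factor that the adaptor KEAP1 holds for ubiquitination by a CUL3 and RBX1 ligase, so that it is degraded in unstressed cells. Oxidants and electrophiles modify KEAP1, NRF2 accumulates, and with a small MAF partner it binds antioxidant response elements near genes for glutathione synthesis, thioredoxin recycling and detoxification. BACH1 occupies the same elements as a repressor, with HMOX1 as its best known target. In pancreatic carcinoma, NRF2 activity is known to be raised. Because NRF2 is controlled mostly through protein stability, NFE2L2 transcript levels are not a measure of NRF2 protein, which is not analysed here.

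The upstream sequences of GCLM, TXNRD1 and SRXN1 are shown for the element that NRF2 is known to bind, since these genes exceeded mock at least 2-fold in AsPC-1, as described below. The RefSeq promoter table (build GRCh38.p14) held 7 of the 9 genes, in 9 entries, and HMOX1 and AKR1B10 had none. The core letters TGACNNNGC, and the looser form TGAGNNNGC, were searched on both strands in the 250 bases before each annotated start. Of the 35116 promoters of that table, 10.9% held TGACNNNGC, 14.8% held TGAGNNNGC and 23.9% held either, while 6 of the 9 entries, from 5 of the 7 genes, held at least 1 of them. Capitals below mark these matches, each sequence reads 5′ to 3′ on the strand of its gene, and a match is a description of letters and not a measured binding site.
GCLM, chr1:93909431-93909680, minus strand: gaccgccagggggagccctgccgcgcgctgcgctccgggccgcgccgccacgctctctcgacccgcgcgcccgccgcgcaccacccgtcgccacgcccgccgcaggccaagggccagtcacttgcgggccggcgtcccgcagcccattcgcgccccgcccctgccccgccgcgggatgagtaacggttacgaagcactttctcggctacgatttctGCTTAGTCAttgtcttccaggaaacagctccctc
TXNRD1, upstream start, chr12:104215529-104215778, plus strand: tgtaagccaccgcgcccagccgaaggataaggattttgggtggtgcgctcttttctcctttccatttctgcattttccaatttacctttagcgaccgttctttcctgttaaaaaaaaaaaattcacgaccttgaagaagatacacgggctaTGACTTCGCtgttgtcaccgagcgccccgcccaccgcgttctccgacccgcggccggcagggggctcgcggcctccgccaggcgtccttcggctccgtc
TXNRD1, downstream start, chr12:104286782-104287031, plus strand: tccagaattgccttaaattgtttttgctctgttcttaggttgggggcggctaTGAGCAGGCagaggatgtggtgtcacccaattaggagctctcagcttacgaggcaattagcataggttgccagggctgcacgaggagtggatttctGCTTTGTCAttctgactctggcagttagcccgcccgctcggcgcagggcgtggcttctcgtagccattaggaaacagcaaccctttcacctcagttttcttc
SRXN1, chr20:653201-653450, minus strand: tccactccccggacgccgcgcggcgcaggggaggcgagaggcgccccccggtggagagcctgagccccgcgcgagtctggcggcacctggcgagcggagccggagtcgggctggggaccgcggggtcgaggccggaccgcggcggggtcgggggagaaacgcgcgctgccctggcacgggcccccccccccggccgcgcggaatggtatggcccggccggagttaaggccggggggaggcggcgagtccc

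In the GCLM promoter TGACTAAGC lay on the opposite strand, 34 to 26 bases before the start. TXNRD1 held TGACTTCGC 99 to 91 bases before its upstream start. Its downstream start had TGACAAAGC on the opposite strand at 102 to 94 bases and TGAGCAGGC at 198 to 190 bases. The other matches were of the looser form, a pair before the first NFE2L2 start, 1 before NQO1 and 1 before AKR1C1. No match lay in these windows of GCLC, SRXN1 or the second NFE2L2 start, and elements farther away were not searched.

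Depth, estimated from the value of 1 read in short genes, was 11.1 to 16.7 M reads in Panc-1 and 18.7 to 23.7 M reads in AsPC-1. At that depth 1 read in 2 kb of transcript was worth 0.0211 to 0.0450 RPKM (reads per kilobase of transcript per M mapped reads), so values near 0.1 RPKM rest on a few reads. All 5 epithelial markers reached 1 RPKM in both lines, and they summed to 896 to 1375 RPKM in Panc-1, against 1880 to 2453 RPKM in AsPC-1. Endothelial markers reached 1 RPKM for 0 of 4 genes in either line, and fibroblast markers for 0 of 5 in Panc-1 and 1 of 5, LUM, in AsPC-1. Of 5 leukocyte markers, 2 reached 1 RPKM in Panc-1, CD68 (28.4 to 46.8 RPKM) and LYZ (1.84 to 3.53 RPKM). In AsPC-1, 3 did, CD68 (39.4 to 92.9 RPKM), LYZ (93.8 to 503 RPKM) and CD14 (0.91 to 2.44 RPKM). PTPRC and CD3E stayed under 1 RPKM in every library. All 9 genes were among the 13427 that passed the filter of at least 1 RPKM in at least 2 libraries. AKR1C1 and AKR1B10 passed only through AsPC-1, and AKR1B10 only through the 1 and 5 h libraries of that line.

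The genes spanned a wide range of levels, and the lines ordered them differently. In Panc-1, TXNRD1 (median 450 RPKM over 7 libraries), HMOX1 (230 RPKM) and NQO1 (151 RPKM) were the highest, and the ranges of these genes did not overlap. NFE2L2 (53.7 RPKM), SRXN1 (42.8 RPKM) and GCLC (34.9 RPKM) followed with overlapping ranges, and GCLM (12.8 RPKM) lay below them. AKR1C1 and AKR1B10 stayed at or under 0.24 RPKM there. In AsPC-1, TXNRD1 (median 249 RPKM) and NQO1 (182 RPKM) were the highest and overlapped, ahead of SRXN1 (42.2 RPKM), NFE2L2 (24.1 RPKM) and GCLC (22.5 RPKM), which overlapped each other. AKR1C1 (7.94 RPKM), GCLM (4.95 RPKM), HMOX1 (3.95 RPKM) and AKR1B10 (1.07 RPKM) came last, each overlapping its neighbour in this order. The plot of levels by time gives every library.

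**Figure D1:**
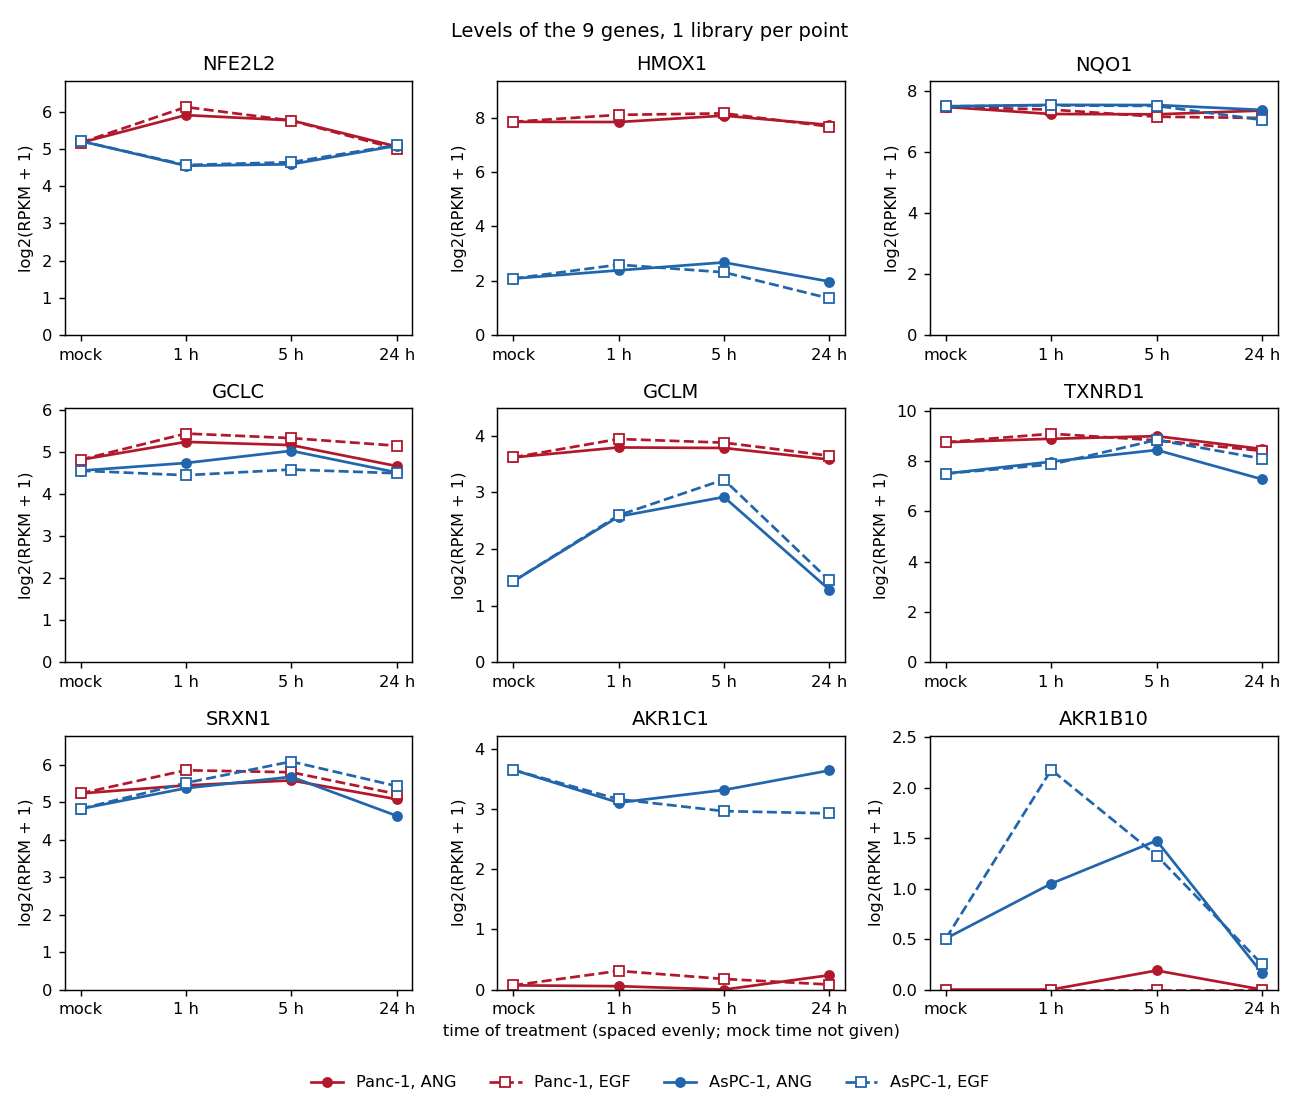
Level of each gene as log2(RPKM + 1), vertical axis, in the mock library and at 1, 5 and 24 h, horizontal axis, with 1 library per point. Red is Panc-1 and blue AsPC-1, filled circles are ANG and open squares EGF. NFE2L2 bends upward at 1 and 5 h in Panc-1 and downward in AsPC-1, GCLM bends upward mainly in AsPC-1, and HMOX1 keeps the lines far apart in every condition.

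The lines were compared within the 7 conditions. AKR1C1 and AKR1B10 had entered the fit through AsPC-1 alone, which decides their difference between the lines, so they are described without a test. Of the other 7 genes, which reached 1 RPKM in at least 2 libraries of each line, 5 differed in Panc-1 from AsPC-1 at an adjusted p under 0.05 (limma, Benjamini-Hochberg), all 5 higher. Among the 11107 genes that passed the filter in each line, the same test called 64% of genes, 36% higher and 27.9% lower. Counted in either direction, the share of the 7 genes was near what the lines showed in general. Their median difference was 0.72 on the log2(RPKM + 1) scale, against 0.10 over those 11107 genes.

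HMOX1, heme oxygenase, which breaks heme down to biliverdin, iron and carbon monoxide, had the widest gap of the 7. Its gene lies at chr22:35777060-35790207, plus strand (hg19, as are all gene positions below). Panc-1 held 230 RPKM in mock, 229, 270 and 213 RPKM after 1, 5 and 24 h of ANG, and 276, 286 and 204 RPKM after the same times of EGF. AsPC-1 held 3.21 RPKM in mock, 4.20, 5.37 and 2.91 RPKM after ANG, and 5.01, 3.95 and 1.54 RPKM after EGF. No AsPC-1 library came near any Panc-1 library. The log2 difference was 5.74 ± 0.11 (SE, limma adjusted p = 1.52e-09). An exact two-sided sign-flip test over the 7 conditions gave p = 0.0156, the smallest it can give.

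Glutathione synthesis begins with glutamate-cysteine ligase, whose catalytic subunit is GCLC and whose modifier subunit is GCLM, and the lines differed more in the modifier. GCLM (chr1:94352590-94375012, minus strand), the gene with the opposite-strand TGACTAAGC shown above, was at 11.3 RPKM in Panc-1 mock, 12.9, 12.8 and 11.0 RPKM at 1, 5 and 24 h of ANG, and 14.4, 13.7 and 11.5 RPKM with EGF. In AsPC-1 it was at 1.69 RPKM in mock, 4.95, 6.56 and 1.43 RPKM with ANG, and 5.04, 8.35 and 1.72 RPKM with EGF. Panc-1 was higher in 7 of 7 conditions, by a log2 difference of 1.54 ± 0.23 (SE, limma adjusted p = 0.000334). The gap was narrowest at 1 and 5 h, when AsPC-1 was at its highest.

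GCLC (chr6:53362140-53409927, minus strand) differed less. It was at 27.2 RPKM in Panc-1 mock, 36.8, 34.9 and 24.4 RPKM with ANG, and 42.4, 39.3 and 34.5 RPKM with EGF. The AsPC-1 values were 22.5 RPKM in mock, 25.7, 31.7 and 21.9 RPKM with ANG, and 20.8, 23.0 and 21.6 RPKM with EGF. The ranges overlapped, but Panc-1 was higher in 7 of 7 conditions (log2 difference 0.49 ± 0.12 SE, limma adjusted p = 0.00513).

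Of the pair that keeps thiols reduced, thioredoxin reductase (TXNRD1) differed between the lines and sulfiredoxin (SRXN1), which repairs overoxidised peroxiredoxins, did not pass the test. TXNRD1 (chr12:104609559-104744062, plus strand) was at 427 RPKM in Panc-1 mock, 470, 505 and 354 RPKM with ANG, and 539, 450 and 336 RPKM with EGF. AsPC-1 had 179 RPKM in mock, 249, 344 and 153 RPKM with ANG, and 231, 455 and 271 RPKM with EGF. Panc-1 was higher in 6 of 7 conditions, all but EGF at 5 h, with a log2 difference of 0.77 ± 0.17 (SE, limma adjusted p = 0.00374, exact sign-flip p = 0.0312). The span of TXNRD1 holds EID3 on the same strand, which reached at most 20.2 RPKM.

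SRXN1 (chr20:627268-633890, minus strand) was at 36.7 RPKM in Panc-1 mock, 42.8, 47.0 and 32.9 RPKM with ANG, and 56.9, 54.8 and 36.3 RPKM with EGF. It was at 27.3 RPKM in AsPC-1 mock, 40.6, 50.3 and 23.9 RPKM with ANG, and 44.8, 67.0 and 42.2 RPKM with EGF. The lines overlapped, and the log2 difference of 0.10 ± 0.11 (SE) had a limma adjusted p of 0.461. NQO1 (chr16:69743304-69760533, minus strand), a quinone reductase that is a standard readout of NRF2 activity, held 138 to 178 RPKM (median 151) in Panc-1, against 132 to 186 RPKM (median 182) in AsPC-1. Its log2 difference of -0.15 had a limma adjusted p of 0.112.

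The aldo-keto reductases reduce steroids, ketones and lipid aldehydes, and both genes were near 0 in Panc-1. AKR1C1 (chr10:5005454-5020158, plus strand) was at 0 to 0.24 RPKM (median 0.06) in Panc-1, against 6.60 to 11.5 RPKM (median 7.94) in AsPC-1. The ranges lay far apart. AKR1C1 and AKR1C2 are near-identical, and how reads were split between them is not given in the sources used here, so the level of either is uncertain. AKR1B10 (chr7:134212344-134226166, plus strand) was listed at 0 in 6 Panc-1 libraries and at 0.14 RPKM in the seventh, ANG at 5 h. AsPC-1 held 0.42 RPKM in mock, 1.07, 1.78 and 0.12 RPKM with ANG, and 3.52, 1.51 and 0.19 RPKM with EGF. The AsPC-1 values at 24 h lay close to the Panc-1 values.

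NFE2L2 (chr2:178095033-178129859, minus strand) differed between the lines at 1 and 5 h and hardly at all otherwise. Panc-1 was at 35.1 RPKM in mock, 59.5, 53.9 and 32.7 RPKM at 1, 5 and 24 h of ANG, and 69.4, 53.7 and 31.3 RPKM with EGF. AsPC-1 was at 36.3 RPKM in mock, 22.5, 23.2 and 33.2 RPKM with ANG, and 22.9, 24.1 and 33.5 RPKM with EGF. In mock and at 24 h the log2 difference lay between -0.10 and -0.02, while at 1 and 5 h it lay between 1.12 and 1.56. The difference over all 7 conditions was 0.72 ± 0.24 (SE, limma adjusted p = 0.0268), higher in Panc-1 in 4 of 7 (exact sign-flip p = 0.125). The call was lost without any of the 8 libraries of 1 or 5 h, with adjusted p up to 0.0720, and without the filter on low values (0.0635).

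**Figure D2:**
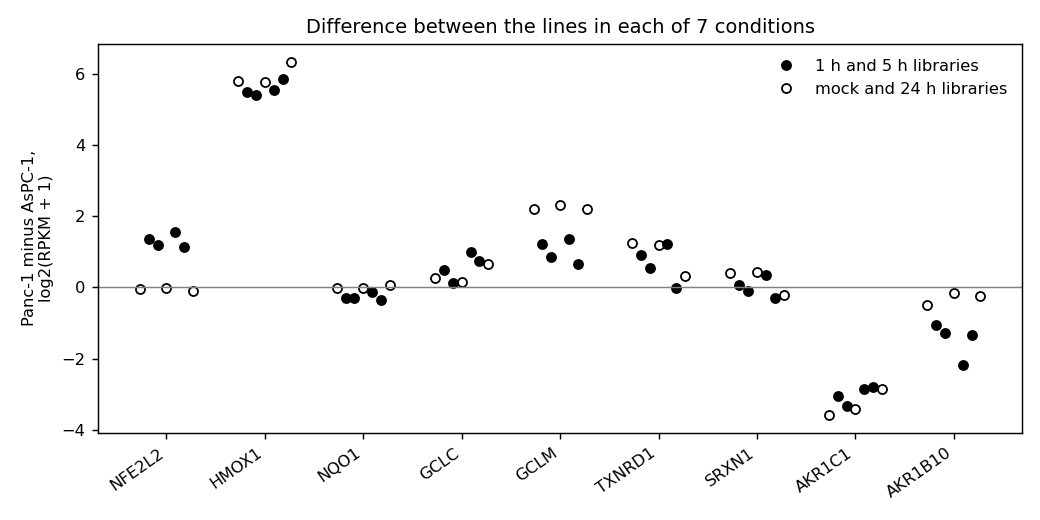
Panc-1 minus AsPC-1 difference of log2(RPKM + 1), vertical axis, for each of the 9 genes, with 1 point per condition. Filled points are the 1 and 5 h libraries and open points the mock and 24 h libraries. HMOX1 lies between 5.41 and 6.33 in all 7 conditions, whereas NFE2L2 splits by time and sits near 0 in mock and at 24 h.

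Change with time was set out within each course of line and ligand, since 4 courses gave the only repeats. At 24 h against 1 h, 0 of the 9 genes passed an adjusted p of 0.05 (limma), against 6.36% of all genes, while 4 of the 9 had an unadjusted p under 0.05 against 25.2% of all genes. Those 4 were lower at 24 h. HMOX1 differed by -0.55 ± 0.16 on the log2 scale (SE, adjusted p = 0.0822, limma), and SRXN1 by -0.46 ± 0.13 (SE, adjusted p = 0.0735, limma). GCLM differed by -0.74 ± 0.27 (SE, adjusted p = 0.141, limma) and GCLC by -0.26 ± 0.11 (SE, adjusted p = 0.198, limma). HMOX1, GCLM and SRXN1 were lower at 24 h in 4 of 4 courses, and GCLC in 3. At 5 h against 1 h limma called 0 genes of all 13427, and 0 of the 9 genes had an unadjusted p under 0.05 against 1.11% of all genes.

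The change between 1 and 24 h depended on the line for 2 of the 7 genes that passed the filter in each line, at an adjusted p under 0.05 (limma interaction). Over the 11107 such genes it did for 38%, with 13.6% positive and 24.4% negative differences, so the share of the 7 was near or below that of genes in general. NFE2L2 was the clearest. At 24 h it stood below its 1 h level in Panc-1, by -0.85 with ANG and -1.12 with EGF on the log2 scale, and above it in AsPC-1, by 0.54 and 0.53. The difference between the lines was -1.52 ± 0.13 (SE, limma adjusted p = 0.00027), and it kept its call without any of the 12 treated libraries. Its 1 and 5 h levels did not overlap those of mock and 24 h in either line, on opposite sides. Of all genes tested, 8.71% separated in these same directions.

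GCLM differed less between 24 h and 1 h in Panc-1 than in AsPC-1. Its log2 differences at 24 h were -0.21 with ANG and -0.30 with EGF in Panc-1, against -1.29 and -1.15 in AsPC-1. The lines differed by 0.97 ± 0.15 (SE, limma adjusted p = 0.00267), a call kept without any of the 12 treated libraries. AKR1B10 was at 0 RPKM at both times in Panc-1 with either ligand, so its dependence on the line was not tested. In AsPC-1 it stood lower at 24 h than at 1 h, by -0.89 with ANG and -1.93 with EGF.

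The other 5 of the 7 genes did not pass this test. TXNRD1 stood lower at 24 h in 3 courses, by -0.41 with ANG and -0.68 with EGF in Panc-1, and by -0.70 with ANG in AsPC-1, but was at 0.23 above 1 h with EGF in AsPC-1. The dependence of the change on the ligand called 0 of all 13427 genes in limma and 0 of the 9. AKR1C1 had the only unadjusted p under 0.05 among them (0.0328, 1.12% of all genes), with a log2 difference of 0.59 ± 0.22 (SE, limma adjusted p = 1). In AsPC-1, AKR1C1 was at 11.5 RPKM after 24 h of ANG against 7.60 RPKM after 1 h, whereas EGF gave 6.60 RPKM after 24 h against 7.94 RPKM after 1 h.

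**Figure D3:**
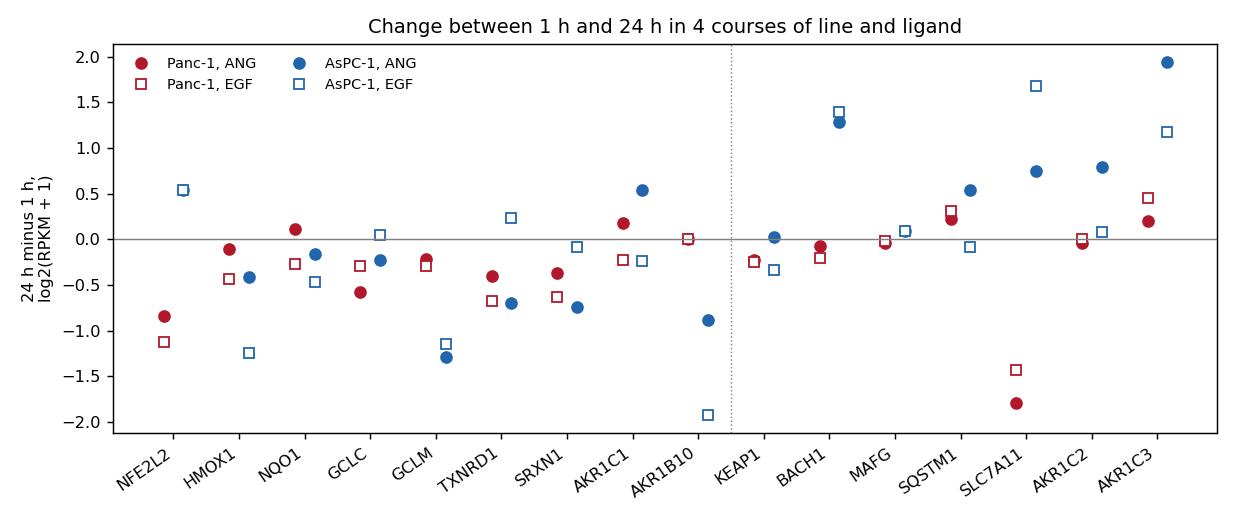
Difference in log2(RPKM + 1) between 24 h and 1 h, vertical axis, in the 4 courses of line and ligand, for the 9 genes left of the dotted line and 7 other pathway genes right of it. Red is Panc-1 and blue AsPC-1, circles are ANG and squares EGF. NFE2L2 and SLC7A11 lie below 0 in Panc-1 and above it in AsPC-1, and BACH1 lies at -0.07 and -0.21 in Panc-1 and at 1.28 and 1.39 in AsPC-1.

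Setting the 4 libraries of 1 and 5 h against the 3 of mock and 24 h gave a description of how the genes separated within each line, with no test. This split was chosen with earlier results of these data known. In Panc-1, NFE2L2, GCLC, GCLM, TXNRD1 and SRXN1 were higher in all 4 early libraries than in any of the other 3, and 0 of the 9 genes were lower. Over all genes tested, 20.9% were higher and 25.4% lower in this way. In AsPC-1, HMOX1, NQO1 and GCLM were higher and NFE2L2 was lower, against 19.4% and 31.5% of all genes. AKR1B10 also stood higher there, at 1.07 to 3.52 RPKM against 0.12 to 0.42 RPKM. It had passed the filter only through these early libraries, which decides its place, so it is not counted. GCLM thus separated upward in both lines, as 4.18% of all genes did, and NFE2L2 upward in Panc-1 and downward in AsPC-1, as 8.71% did. NQO1 in AsPC-1 separated by little, with 182 to 186 RPKM at 1 and 5 h against 132 to 180 RPKM in mock and at 24 h.

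Some of the marker genes also separated along this split. Epithelial markers summed to 896 to 1015 RPKM at 1 and 5 h in Panc-1, against 1127 to 1375 RPKM in mock and at 24 h. KRT8, KRT18 and KRT19 each held this gap, while EPCAM and CDH1 overlapped. In AsPC-1 the epithelial sums overlapped, at 1892 to 2453 RPKM at 1 and 5 h against 1880 to 2043 RPKM in mock and at 24 h. CDH1 alone among them separated in AsPC-1, at 66.6 to 89.3 RPKM at 1 and 5 h against 21.3 to 23.4 RPKM. Leukocyte markers there summed to 171 to 189 RPKM at 1 and 5 h, against 245 to 546 RPKM in mock and at 24 h. That gap lay in LYZ, at 93.8 to 107 RPKM against 199 to 503 RPKM. CD68 stood the other way, at 66.4 to 92.9 RPKM at 1 and 5 h against 39.4 to 45.1 RPKM, as did CD14, at 1.55 to 2.44 RPKM against 0.91 to 1.18 RPKM. Fibroblast markers in AsPC-1 summed to 26.7 to 31.0 RPKM at 1 and 5 h, against 33.1 to 46.7 RPKM, almost all of it LUM. The Panc-1 leukocyte and fibroblast sums overlapped between these times, as did the endothelial sums in both lines. In bulk RNA, fewer cells of a type and less RNA per cell cannot be told apart. The part of these shifts in the results above was not tested.

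Each ligand and time was set against untreated cells, with the lines as the only repeat and the same mock libraries in all 6 comparisons. No untreated library is labelled with a matching time, so the ligand cannot be told apart from time or handling here. SRXN1 was the only one of the 9 genes to pass. After 5 h of EGF, Panc-1 held 54.8 RPKM of it against 36.7 RPKM in mock, and AsPC-1 held 67.0 RPKM against 27.3 RPKM in mock. It rose by 0.91 ± 0.21 on the log2 scale (SE, limma adjusted p = 0.0489). Of 7 alternative settings of the analysis 2 kept this call, with limma adjusted p of 0.0435 to 0.0852 over the 7. At this time EGF called 4.22% of all genes, 0.596% higher and 3.63% lower. At an unadjusted p under 0.05, SRXN1 and GCLM (log2 difference 1.03 ± 0.43 SE, limma adjusted p = 0.204) were 2 of the 9, against 22.3% of all genes. The call was marginal: leaving out any 1 of the 14 libraries ended it, with adjusted p of 0.0543 to 0.297, as did a pseudocount of 0.1 (0.0501) and a fit without the variance trend (0.0519).

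In the other 5 comparisons with mock, 0 of the 9 genes passed. ANG called 0.0819% of all genes at 1 h, 0.112% at 5 h and 0 genes at 24 h, and EGF called 0.663% at 1 h and 0 genes at 24 h. SRXN1 came nearest, with a log2 difference of 0.66 at 1 h of EGF (limma adjusted p = 0.161) and 0.60 at 5 h of ANG (limma adjusted p = 0.192), both with an unadjusted p under 0.05, as 17.2% and 17.8% of all genes had. NQO1 had one at 24 h of EGF (log2 difference -0.40 ± 0.15 SE, limma adjusted p = 0.680), as 7.16% of all genes did. At 1 and 24 h of ANG, 0 of the 9 genes had an unadjusted p under 0.05, against 15.4% and 1.5% of all genes. NFE2L2 lay near 0 in every one of these tests (for example, a log2 difference of 0.04 after 1 h of ANG and of 0.16 after 1 h of EGF, each with an SE of 0.46), its 1 and 5 h levels standing above mock in Panc-1 and below it in AsPC-1.

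Within 1 line each treated library has only 1 mock to set it against, so such differences carry no test. In Panc-1, 0 of the 9 genes were 2-fold from mock in any of 6 treated libraries, where 6.74% of all genes were at least 2-fold higher and 4.72% at least 2-fold lower in 1 library or more. AKR1C1 and AKR1B10 stayed at or under 0.24 RPKM there, where 2-fold on the log2(RPKM + 1) scale is out of reach. The count therefore rests on the other genes, and the shares of all genes also include genes that passed the filter through AsPC-1 alone. In single Panc-1 libraries the shares were 3.77, 4.1 and 2.56% higher at 1, 5 and 24 h of ANG, and 3.37, 3.89 and 1.99% higher with EGF, while 1.92, 2.41 and 0.0968% were lower with ANG and 2.11, 3.38 and 0.186% with EGF. In AsPC-1, 4 genes were at least 2-fold higher in at least 1 library and 0 were 2-fold lower, against 8.89% of all genes higher and 17.5% lower in at least 1 library. In single AsPC-1 libraries the shares were 4.77, 5 and 1.42% higher with ANG and 5.23, 5.27 and 2.42% with EGF, while 10.9, 12.1 and 0.0447% were lower with ANG and 12, 14.4 and 2.76% with EGF. GCLM exceeded its mock by 1.15 and 1.49 on the log2 scale after 1 and 5 h of ANG, and by 1.17 and 1.80 after 1 and 5 h of EGF. After 5 h of EGF, TXNRD1 exceeded its mock by 1.34 and SRXN1 by 1.26. AKR1B10 exceeded its mock by 1.67 after 1 h of EGF, but had passed the filter only through the 1 and 5 h libraries of AsPC-1. At 24 h 0 of the 9 genes were 2-fold from mock in either line, a count that the low 24 h shares of all genes would also give. The median log2 difference of the 9 genes at 1 and 5 h was 0.14 to 0.33 in Panc-1, against -0.12 to -0.05 over all genes. In AsPC-1 it was 0.23 to 0.60 at these times, against -0.18 to -0.13 over all genes. The AsPC-1 medians include AKR1B10, which passed the filter only through these libraries. That selection can raise them, so they are a description and not a comparison with genes in general. At 24 h the medians of the 9 genes were -0.11 with ANG and -0.01 with EGF in Panc-1, against -0.12 and -0.09 over all genes. In AsPC-1 they were -0.13 with ANG and -0.11 with EGF at 24 h, against -0.06 and -0.15 over all genes.

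The direct comparison of ANG with EGF used 6 pairs, each of 1 line at 1 time. None of the 9 genes passed (0 of 9 at an adjusted p under 0.05, limma), against 0.156% of all genes, 0.0149% higher and 0.142% lower with ANG. An unadjusted p under 0.05 was found for 1 of the 9, against 16.0% of all genes. That gene was SRXN1, lower with ANG than with EGF in 6 of 6 pairs. Its log2 differences were -0.40, -0.22 and -0.14 at 1, 5 and 24 h in Panc-1, and -0.14, -0.41 and -0.79 in AsPC-1. They averaged -0.35 ± 0.09 (SE, limma adjusted p = 0.155), with an exact two-sided sign-flip p of 0.0312, the smallest 6 pairs allow and one that 10.2% of all genes reached. GCLM was also lower with ANG in 6 of 6 pairs, by -0.13 ± 0.06 (SE, limma adjusted p = 0.315, exact sign-flip p = 0.0312). The other 7 genes had sign-flip p-values of 0.281 to 0.938 over the 6 pairs (exact test).

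The widest differences within a pair were in AsPC-1. AKR1B10 in AsPC-1 at 1 h was at 1.07 RPKM with ANG against 3.52 RPKM with EGF. TXNRD1 in AsPC-1 at 24 h was at 153 RPKM with ANG against 271 RPKM with EGF, a log2 difference of -0.82. Tested at 1, 5 and 24 h apart, limma called 0 of the 9 genes at each time, against 0.0223% of all genes at 1 h and 0 genes at 5 and 24 h. At an unadjusted p under 0.05 it was also 0 of the 9 at each time, against 1.33%, 1.74% and 4.09% of all genes at 1, 5 and 24 h. The dependence of the ligand difference on the line called 0 of all 13427 genes. Of the 9, GCLC alone had an unadjusted p under 0.05 there, as 7.75% of all genes did. GCLC was lower with ANG in Panc-1, by -0.20, -0.17 and -0.48 at 1, 5 and 24 h, and higher with ANG in AsPC-1, by 0.29, 0.45 and 0.02. The lines differed by -0.53 ± 0.14 (SE, limma adjusted p = 0.598).

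**Figure D4:**
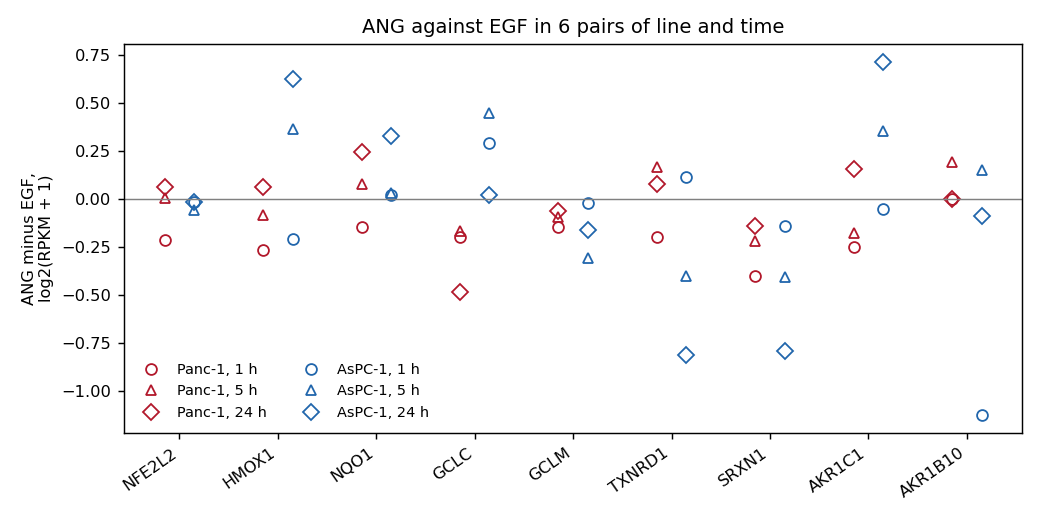
ANG minus EGF difference of log2(RPKM + 1), vertical axis, for the 9 genes in 6 pairs of line and time, with 1 point per pair. Red is Panc-1 and blue AsPC-1, and circles, triangles and diamonds are 1, 5 and 24 h. All 6 SRXN1 points lie between -0.79 and -0.14, and the 6 GCLM points also lie under 0.

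Of 10 listed genes that control or partner NRF2 or are its relatives (NFE2L1 and NFE2L3), all tested, 9 passed the filter in each line. Between the lines limma called 5 of these 9, 4 higher and 1 lower in Panc-1, against 64% of all such genes, 36% higher and 27.9% lower. BACH1, the repressor of antioxidant elements, was the lower one, at 7.74 to 11.3 RPKM in Panc-1, against 20.8 to 77.4 RPKM in AsPC-1 (log2 difference -1.93 ± 0.29 SE, limma adjusted p = 0.000376). The small MAF gene MAFG was higher, by 1.17 ± 0.09 (SE), and SQSTM1, whose protein p62 draws KEAP1 into autophagy, by 0.92 ± 0.12 (SE). NFE2L3, a relative of NFE2L2 that passed the filter through Panc-1 alone, was at 24.2 to 33.5 RPKM in Panc-1, against 0.44 to 0.72 RPKM in AsPC-1. KEAP1 was at 28.4 to 37.2 RPKM in Panc-1, against 32.2 to 40.8 RPKM in AsPC-1, a difference of -0.12 ± 0.07 (SE, limma adjusted p = 0.154).

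The change between 1 and 24 h depended on the line for 3 of these 9 genes, near the 38% of all such genes. All 3 differences were negative (24.4% of all such genes), namely BACH1 (-1.48 ± 0.13 SE), RBX1 (-0.79 ± 0.18 SE) and NFE2L1 (-0.50 ± 0.13 SE). BACH1 in AsPC-1 was at 77.4 RPKM in mock, 30.0, 23.7 and 74.1 RPKM at 1, 5 and 24 h of ANG, and 22.8, 20.8 and 61.4 RPKM with EGF. Its early libraries lay below mock and 24 h there, as did those of 31.5% of all genes tested, NFE2L2 among them. A link between BACH1 and the levels of the 9 genes was not tested. MAFF, another small MAF gene, reached 29.1 RPKM after 1 h of EGF in Panc-1, against 8.73 RPKM in mock, and 17.3 RPKM in AsPC-1, against 9.49 RPKM in mock. It did not pass the test (log2 difference 1.21 ± 0.29 SE, limma adjusted p = 0.0972).

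Among 32 other NRF2 target genes, 31 were tested and 27 passed the filter in each line. Of these 27, 22 differed between the lines, 10 higher and 12 lower in Panc-1, against 64% of all such genes. Their median difference was -0.04, against 0.10 over all such genes. The glutathione peroxidase gene GPX2 was lower by a log2 difference of -4.96 and AKR1C3 by one of -5.74. The dependence of 24 h against 1 h on the line called 13 of the 27, with 6 positive and 7 negative differences, against 38% of all such genes. SLC7A11, the cystine importer that feeds glutathione synthesis, had the largest of these, at -2.82 ± 0.31 (SE, limma adjusted p = 0.00066). It was at 11.5 RPKM in Panc-1 mock, 39.6, 39.6 and 10.7 RPKM with ANG, and 48.0, 44.0 and 17.2 RPKM with EGF. In AsPC-1 it was at 34.6 RPKM in mock, 18.7, 21.2 and 32.1 RPKM with ANG, and 14.4, 18.3 and 48.2 RPKM with EGF. SLC7A11 thus bent in the same directions as NFE2L2, a separation that 8.71% of all genes showed. CBR3 (-1.54), AKR1C3 (-1.23) and ABCC3 (1.11) followed.

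Of 9 tested genes of the aldo-keto reductase family, 3 passed the filter in each line, and all 3 differed between the lines, 2 higher and 1 lower in Panc-1. Of all genes that passed the filter in each line, 64% differed, 36% higher and 27.9% lower. The other 6 family genes did not reach the filter in both lines. AKR1B1 was one of them, at 35.1 to 39.5 RPKM in Panc-1, against 0 to 0.31 RPKM in AsPC-1, opposite in direction to its paralog AKR1B10. AKR1C2 was at 0 to 0.07 RPKM in Panc-1, against 2.71 to 5.51 RPKM in AsPC-1, like its near copy AKR1C1. AKR1C3 in AsPC-1 was at 411 RPKM in mock, 105, 108 and 408 RPKM with ANG, and 101, 74.7 and 227 RPKM with EGF. Over the same libraries AKR1C1 was at 11.5 RPKM in mock, 7.60, 8.95 and 11.5 RPKM with ANG, and 7.94, 6.80 and 6.60 RPKM with EGF. After 5 h of EGF, AKR1A1 was the 1 of the 9 tested genes of the family that differed from mock (-0.56 ± 0.11 SE, limma adjusted p = 0.0353). Of all genes, 4.22% did.

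Of 18 other glutathione, thioredoxin and peroxide enzymes, 17 were tested and 16 passed the filter in each line. Of these 16, 12 differed between the lines, 7 higher and 5 lower in Panc-1, against 64% of all such genes. The change with time depended on the line for 11 of the 16, 1 positive and 10 negative, against 38% of all such genes, 13.6% positive and 24.4% negative. The list median was -0.71, against -0.09 over all such genes. The most negative were glutaredoxin GLRX (-1.32), the peroxiredoxin genes PRDX3 (-1.31) and PRDX2 (-1.21) and glutathione peroxidase GPX1 (-1.23), and the positive one was the mitochondrial superoxide dismutase SOD2 (0.69). At 24 h against 1 h, 1 of the 31 tested other targets, ABCB6 (-0.56), was lower past the threshold. Of the 17 tested enzymes here, 2 were, GPX4 (-0.56) and PRDX4 (-0.41). Of all genes, 6.36% passed, 2.92% of them lower and 3.44% higher as shares of all genes.

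Patterns over the 14 libraries were compared as Pearson's r of log2(RPKM + 1) after centring each gene within its line, as a description over libraries that share lines, mocks and depth. Among the 9 genes, TXNRD1 and SRXN1 were the most alike (r = 0.93, with 0.82 over the Panc-1 libraries and 0.97 over the AsPC-1 libraries). NFE2L2 and GCLM had r = 0.94 over the Panc-1 libraries and -0.92 over the AsPC-1 libraries. Among 8669 other genes, those most like NFE2L2 were COQ7 (r = 0.98), ETFA (0.97) and ASF1A (0.97). Closest to HMOX1 were RHBDD2 (r = 0.94), CHST10 (0.93) and GTF3C4 (0.91). Their r was 0.72, 0.78 and 0.87 over the Panc-1 libraries and 0.99, 0.95 and 0.92 over the AsPC-1 libraries. Closest to NQO1 were RNF130 (r = 0.96), RPL15 (0.95) and TTC17 (0.94). GCLC had no gene above r = 0.82 (CYB5R4, then LOXL2 and UGGT2). Their r was 0.88, 0.93 and 0.97 over the Panc-1 libraries and 0.73, 0.57 and 0.57 over the AsPC-1 libraries. GCLM was most like MARS2 (r = 0.99), FYTTD1 (0.98) and TRIM35 (0.98). Their r was 0.75, 0.77 and 0.93 over the Panc-1 libraries and 0.99 each over the AsPC-1 libraries. TXNRD1 was most like ITCH (r = 0.96), RING1 (0.96) and VKORC1L1 (0.94), and SRXN1 most like ELL2, CFLAR and TUBB6 (r = 0.95 each). For AKR1C1 the nearest were ALOX5 (r = 0.92), PRSS23 (0.91) and GPA33 (0.91), and for AKR1B10 SIRT7 (0.94), ARTN (0.93) and PELP1 (0.93), these last resting on AsPC-1, since both genes were near 0 in Panc-1.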

How the data were processed

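Total RNA extracted with TRIzol from 14 cultures was sequenced. The deposited files list 23040 genes with position and log2 RPKM, a log2 value the authors computed per library, per the file headers. Positions are in hg19, the build named per the submitters' processing notes. Which aligner, counter and annotation were used, and whether strand was, is not given in the sources used here, so overlapping genes and close paralogs may share reads. RPKM was recovered as 2 to the power of each value, with the floor of -8.97 read as 0. Depth was estimated from genes spanning no more than 150 bp, whose values were whole multiples of 1 read, within 0.1, for 99.6 to 100% of them.

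limma 3.58.1 in R 4.3.3 was fitted with a variance trend on log2(RPKM + 1) of the 13427 genes that reached 1 RPKM in 2 or more libraries, with Benjamini-Hochberg adjustment over all of them and a threshold of 0.05. Fold changes on this scale understate those of low genes. The comparison of conditions with mock used line and condition as additive terms, and ANG with EGF within 6 pairs. Times were compared within 4 courses, lines within 7 conditions, and dependence on line or ligand as interactions. Calls between the lines, and of line-dependent change with time, were counted over the 11107 genes that passed the filter in each line, a choice made after seeing the data. Sign-flip tests enumerated 64 or 128 patterns. No count model was used, since transcript lengths are not in the files.

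All 9 genes are named, with the listed pathway genes past the threshold (up to 4 per list and comparison, the largest first) and always KEAP1, BACH1, MAFG, SQSTM1, SLC7A11, AKR1C2 and AKR1C3. For each of the 9 genes, the 3 genes with the highest r among those with a mean of at least 5 RPKM are named. MAFF was named outside that rule, after its values were seen. The genes, the lists and the split of 1 and 5 h against mock and 24 h were chosen with earlier results of these data known. Alternatives were a pseudocount of 0.1, no filter or one of 5 RPKM, centring on library medians, rescaling without genes of under 400 bp, no variance trend and each library left out in turn. A fit without the 24 h libraries was added after seeing the data.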

Additional observations from a re-analysis of the deposited data

Results flagged for a closer look

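The change between 1 h and 24 h differed between Panc-1 and AsPC-1, by the limma interaction test, for 2 of the 9 genes and for 3 of the pathway genes that were always named. The values are log2 differences of the 24 h minus 1 h change, Panc-1 minus AsPC-1. NFE2L2 was at -1.52 and GCLM at 0.97. SLC7A11 was at -2.82, BACH1 at -1.48 and AKR1C3 at -1.23. The same test called 38% of the genes that passed the filter in each line.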

How the results depend on the processing

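Each value named for the 9 genes, 19 in all, was recomputed under the alternatives, giving 373 values, of which 345 kept direction and side of the threshold, 28 kept direction but lost the call, and 0 reversed. The lost calls were those of SRXN1 after 5 h of EGF and NFE2L2 between the lines, with values or their ranges given above. The count of genes past the threshold after 5 h of EGF, 1, was 0 with a pseudocount of 0.1, without a filter, with centred libraries, without the variance trend, without the 24 h libraries, and with any library left out (0 to 0). For ANG against EGF within pairs the count was 2 by the unadjusted exact sign-flip test, against 0 in limma, where 10.2% of all genes reached the smallest sign-flip p. The count 2-fold from mock in Panc-1, 0, was 2 with a pseudocount of 0.1 and 1 with centred libraries. The 2 were AKR1C1 (0.24 RPKM after 1 h of EGF, 0.05 RPKM in mock) and AKR1B10 (0.14 RPKM after 5 h of ANG, 0 RPKM in mock). Between the lines the count of 5 stayed within 4 to 6, and for the line-dependent change with time the count of 2 stayed within 2 to 3. The cause of these shifts was not tested. No paired analysis by replicate number was possible because each group holds 1 library. Depth limits AKR1C1 and AKR1B10 in Panc-1, whose values rest on a few reads.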
